A study of Mus musculus with 8 samples.

Results

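The colony-stimulating factor genes followed here are 2 ligands, Csf1 and Csf2, and 5 receptor genes, Csf1r, Csf2ra, Csf2rb, Csf3r and Flt3. They were taken by gene symbol from the deposited matrices, and make up 7 of the 27405 genes listed in at least 1 library. The 7 genes were followed in cell classes gated by marker genes, none of which is one of the 7, and read library by library.

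Csf1, also called M-CSF, is made by stromal cells, endothelium and activated lymphocytes and keeps monocytes and macrophages alive through the receptor tyrosine kinase encoded by Csf1r. Csf2, or GM-CSF, is a product of activated T and NK cells and acts through a specific alpha chain (Csf2ra) paired with the beta common chain (Csf2rb), which IL-3 and IL-5 receptors share; the pair signals through JAK2 and STAT5. Csf3r is the receptor for G-CSF and marks the neutrophil lineage, and Flt3 is the receptor tyrosine kinase on which dendritic cells and their progenitors depend.

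Tumours of the mouse colon carcinoma line MC38 were the source, with the genotype given as wild-type; their CD45+ cells were sorted by flow cytometry and their RNA was read cell by cell. There were 2 control libraries and 2 libraries after LNP-Sirpa treatment, all with 1 batch label. No label states what control tumours were given, what LNP-Sirpa carries, or whether the 2 libraries of a group came from separate animals, so p-values below measure only the spread between these libraries. The 4 matrices held 7511 to 10890 barcodes and 68654004 to 90789729 UMIs (unique molecular identifiers, 1 per captured transcript), with a median of 5926 to 7040 UMIs in a kept cell.

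Cells were gated by UMIs of marker lists. Macrophages needed at least 20 UMIs of C1qa, C1qb and C1qc and fewer than 10 of 8 monocyte markers per 10000 UMIs, monocytes the reverse with at least 15, and phagocytes that met neither rule are called intermediate phagocytes. The latter are a range of cells and not a type: their median C1q level was 116 and 127 per 10000 in control 1 and 2 against 56.9 and 50.2 in LNP-Sirpa 1 and 2, and 579 to 1180 cells a library lay near the monocyte gate, between 8 and 18 per 10000. In the controls that C1q level was near the 124.6 and 134.7 of gated macrophages. After LNP-Sirpa it lay between monocytes (7.764 and 7.974) and macrophages (110.8 and 107). The name therefore states only that neither rule was met, and the class held unlike cells in the 2 groups. Macrophages numbered 3084 and 5472 in the controls and 2796 and 3560 after LNP-Sirpa, intermediate phagocytes 1957, 2042, 1303 and 1184, and monocytes 157, 129, 653 and 697 in the order control 1, control 2, LNP-Sirpa 1 and LNP-Sirpa 2, which is the order used throughout. Neutrophils were 24, 19, 203 and 138, CD8 T cells 59, 290, 535 and 450, and NK cells 136, 94, 290 and 69. Of all class sizes, those of neutrophils (log2 difference 2.83), Foxp3-negative CD4 T cells (2.36), monocytes (2.10) and T cells outside the CD8, CD4 and regulatory gates (2.05) were higher after LNP-Sirpa (edgeR, adjusted p = 0.0245, 0.0245, 0.0275 and 0.0275). The same shares in an exact permutation test of 2 against 2 libraries cannot go below p = 0.333. Without control 1 none of these 4 sizes passed (edgeR adjusted p = 0.108 for each), nor without control 2 (0.0827 for neutrophils and CD4 T cells, 0.127 for monocytes and other T cells). With a stricter gate monocytes and other T cells did not pass (0.0612 for both), and other T cells did not without LNP-Sirpa 1 (0.0519). Fibroblast-gated cells, with 196 to 391 a library, passed the CD45 sort, and their level of Ptprc, the gene of CD45, was 22.4, 22.5, 38.9 and 33.4 CPM (the gene's UMIs scaled by the summed UMIs of the class in that library) against 241, 277.5, 424 and 336 CPM in macrophages. Sirpa itself was listed at 589, 575, 501 and 360 CPM in all phagocytes.

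UMIs of the 11 macrophage markers were also found in cells gated as other types; whether they came from free RNA or from cells sharing a droplet was not tested. Their summed level in CD8 T cells was 8.20 to 10.4% of that in the phagocytes of the same library, in NK cells 6.43 to 7.21%, and in fibroblasts 4.30 to 5.54%; none of the 11 markers was at 0 in any of these sums. The list of 7 markers common to macrophages and monocytes stood at 11.5 to 26.1% in CD8 T cells, with both LNP-Sirpa libraries above both controls. A receptor gene at such a percentage in lymphocytes is given as a value, with no claim that the lymphocytes expressed it.

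Csf1 was highest, among the larger classes, in CD8 T cells and fibroblasts and not in phagocytes. In CD8 T cells it stood at 148, 174, 153 and 58.5 CPM of the summed UMIs, so that 3 libraries lay close together and LNP-Sirpa 2 lay below them. In fibroblasts it was 78.0, 78.8, 122 and 83.0 CPM. Macrophages held 27.7, 24.5, 29.8 and 13.4 CPM and monocytes 41.2, 47.0, 39.6 and 22.3 CPM, again with LNP-Sirpa 2 lowest.

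Csf1 in CD8 T cells was 368 to 656% of the phagocyte level of the same library, and in fibroblasts 271 to 521%, against 4.30 to 10.4% for the macrophage markers in these classes. Regulatory T cells, which hold down other T cells, carried 59.7, 80.8, 41.9 and 49.6 CPM. Cytotoxic NK cells, by contrast, carried 6.003, 3.14, 11.8 and 14.7 CPM, on 10, 3, 30 and 8 UMIs. Thinned to 2000 UMIs a cell, 27.6, 30.8, 23.0 and 11.1% of CD8 T cells had a Csf1 UMI, against 2.24, 0, 2.49 and 1.52% of NK cells; as counted the shares were 52.5, 54.5, 46.4 and 22.7% against 7.35, 3.19, 5.17 and 7.25%. Exact 95% binomial intervals of the thinned shares ran from 8.23 to 14.5% for CD8 T cells of LNP-Sirpa 2 and from 25.5 to 36.5% for those of control 2. These intervals cover counting error within a library and not the spread between libraries of a group. The other LNP-Sirpa library stood at 23.0%.

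Among the classes too small for a test, neutrophils and mast cells or basophils held Csf1 UMIs in every library. Neutrophils stood at 139, 309, 183 and 174 CPM, the control values on 15 and 14 UMIs. Mast cells or basophils, with 45, 24, 143 and 6 cells, stood at 157, 212, 120 and 94.6 CPM, the last on 5 UMIs. Dendritic cells had little: cDC1, the cross-presenting dendritic cells, held 2 to 4 Csf1 UMIs a library (2.29 to 3.97 CPM, and 26.2 CPM in the 11 cells of LNP-Sirpa 2), type 2 conventional dendritic cells (cDC2) held 5.26 to 13.4 CPM, and mature dendritic cells at most 7.16 CPM, with no Csf1 UMI in the 22 cells of LNP-Sirpa 2, which allows a share of up to 13.6%.

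The order of mean Csf1 level over the 10 classes with at least 20 cells in every library ran CD8 T cells, fibroblasts, other T cells, regulatory T cells, monocytes, intermediate phagocytes, macrophages, cDC2, NK cells and mature dendritic cells. The range over the 4 libraries overlapped that of the next class at each step. Macrophages held 27.2, 26.4, 11.6 and 19.5% of all Csf1 UMIs of kept cells, though they gave 37.3, 45.5, 22.0 and 43.1% of the UMIs of all genes. CD8 T cells held 2.41, 9.08, 12.7 and 8.39% of Csf1 UMIs while giving 0.622, 2.20, 4.70 and 4.24% of all UMIs. Droplets past the gates of more than 1 lineage, kept apart as mixed, held 21.7 to 38.8% of Csf1 UMIs and 16.5 to 36.4% of all UMIs.

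**Figure D1:**
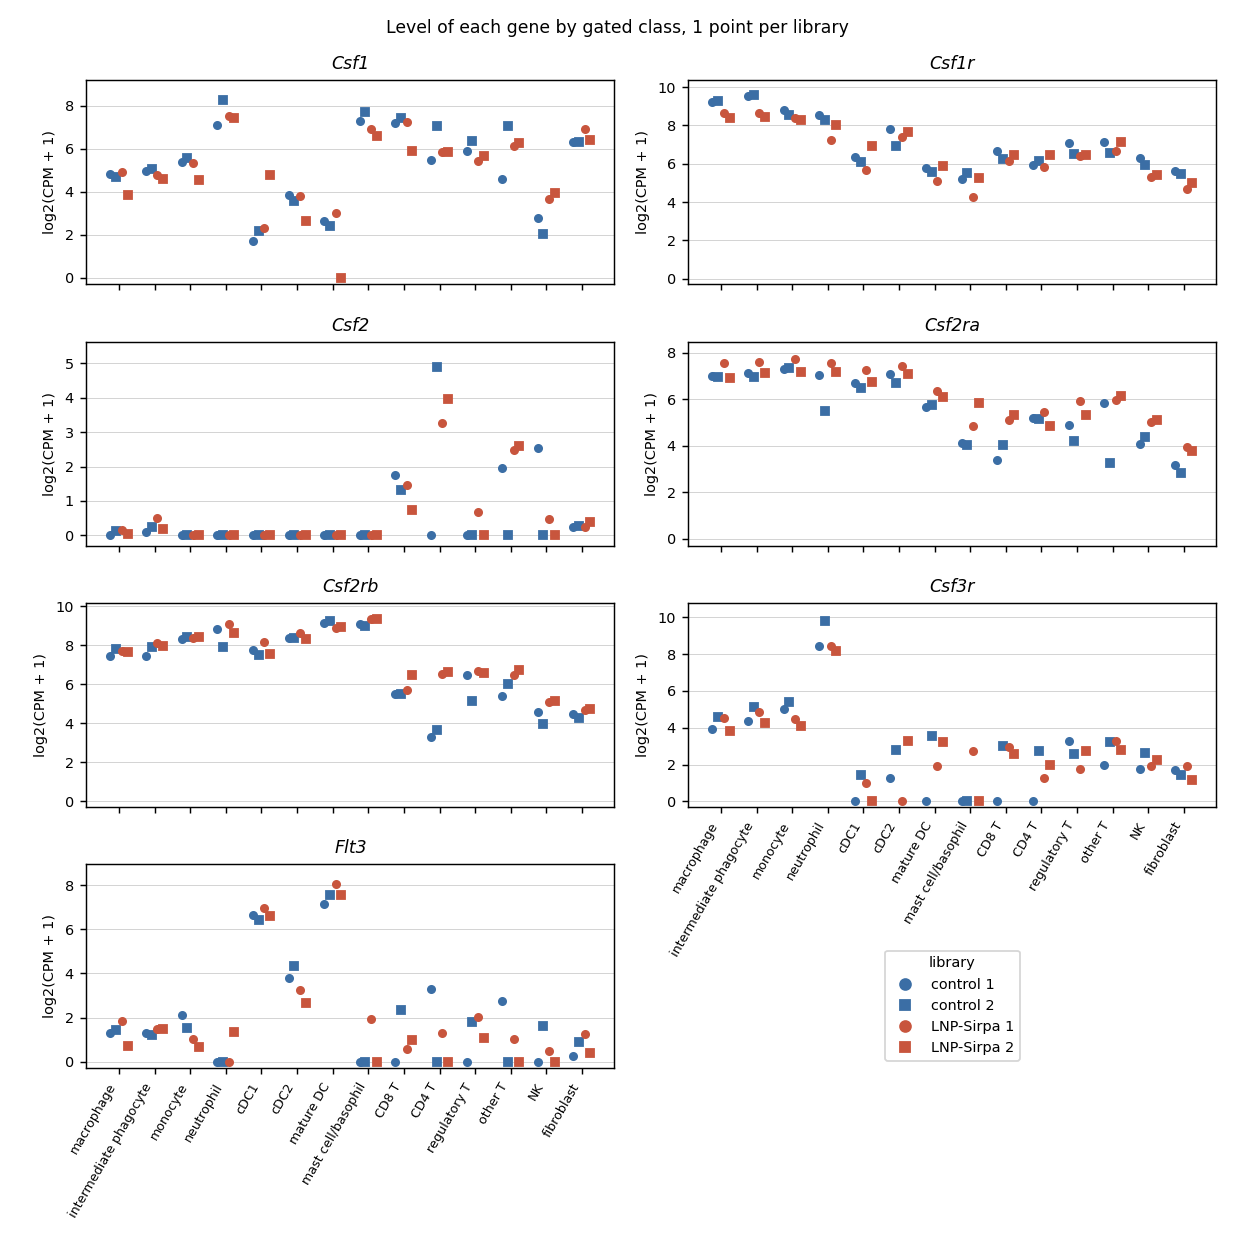
Level of each gene, as log2 of CPM plus 1 in the summed UMIs, by gated class (horizontal axis) with 1 point per library; blue is control, red is LNP-Sirpa. Csf1r is spread over the 3 phagocyte classes, Csf3r stands out in neutrophils, Flt3 in cDC1 and mature dendritic cells, and Csf1 in CD8 T cells, neutrophils, mast cells and fibroblasts.

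Csf2 transcripts were rare and were found mainly in T cells and in mixed droplets. All kept cells together held 29, 29, 42 and 30 Csf2 UMIs. Foxp3-negative CD4 T cells, the helper subset, had 0, 5, 6 and 10 of them in 18, 29, 120 and 131 cells. CD8 T cells had 1, 3, 7 and 2, and other T cells 1, 0, 9 and 5.

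Mixed droplets held 15, 14, 11 and 6 Csf2 UMIs, in 6, 12, 11 and 6 droplets, of which 6, 10, 11 and 6 also had a UMI of Cd3d, Cd3e, Cd3g or Trac. NK cells of control 1 held 8 Csf2 UMIs in 6 of 136 cells, 2 of which had a T cell receptor complex UMI, while NK cells of the other libraries held 0, 1 and 0. Macrophages, which respond to GM-CSF, had 0, 4, 2 and 1 UMIs. Monocytes had 0 in every library, which allows shares of cells with a UMI of up to 1.91, 2.33, 0.459 and 0.430%. Neutrophils, cDC2 and mature dendritic cells also held no Csf2 UMI, the last allowing up to 4.41, 4.35, 2.65 and 13.6%.

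Csf1r was highest in the phagocyte classes. Macrophages held 608.5, 614, 398 and 335.5 CPM, intermediate phagocytes 739, 772, 407 and 350 CPM, and monocytes 452, 376, 334 and 307 CPM. In all 3 classes both LNP-Sirpa libraries lay below both controls. Neutrophils, of which the controls had few, stood at 370, 309, 153 and 255 CPM, beside a macrophage marker level 17.6 to 26.9% of that of phagocytes.

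Of the other classes large enough for a test, cDC2 had the highest Csf1r, with 221, 120, 171 and 200 CPM. That was 34.1, 18.5, 43.5 and 59.5% of the phagocyte level. In cDC2 the common phagocyte list stood at 44.5, 29.6, 54.0 and 58.2%, and the macrophage list at 7.19 to 13.2%. The part of these markers in the Csf1r level of cDC2 was not tested. Mature dendritic cells held 32.9 to 58.8 CPM and fibroblasts 24.4 to 48.5 CPM. In CD8 T cells the level was 11.8 to 26.0% of that in phagocytes, in NK cells 9.40 to 12.6% and in fibroblasts 6.21 to 9.30%, each above the macrophage list in the same class, while the common phagocyte list stood at 11.5 to 26.1%, 19.1 to 29.1% and 5.82 to 7.67%. After thinning, 67.0, 68.1, 54.0 and 47.8% of macrophages had a Csf1r UMI, against 15.7, 10.9, 8.19 and 7.58% of NK cells; as counted the macrophage shares were 87.8, 87.8, 73.6 and 80.1%, at median depths of 6876, 6473, 5407 and 7752 UMIs. In the order of mean levels, intermediate phagocytes, macrophages and monocytes overlapped in range step by step, and the step from monocytes to cDC2 was the one where the ranges over 4 libraries were apart.

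The GM-CSF receptor chains differed in where they lay. Csf2ra was similar across phagocytes and cDC2: macrophages had 127, 121, 187 and 118 CPM, monocytes 155, 162, 211 and 142 CPM, and cDC2 133, 103, 169 and 133 CPM. LNP-Sirpa 1 was the highest library in each. Mature dendritic cells, which have migrated or are ready to migrate to lymph nodes, held less Csf2ra, with 49.5, 52.3, 81.6 and 67.2 CPM, and the ranges of cDC2 and mature dendritic cells were apart.

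Mean Csf2rb was highest in mast cells or basophils and in mature dendritic cells, which both held less Csf2ra than macrophages. In mast cells or basophils Csf2ra was 16.4, 15.1, 27.55 and 56.7 CPM. Monocytes, cDC2 and neutrophils held both chains, with Csf2ra at 129.5, 44.1, 185 and 143 CPM in neutrophils. For Csf2rb, mature dendritic cells stood at 571, 599, 474 and 487 CPM. Mast cells or basophils, which use the chain for IL-3, stood at 540, 507, 657 and 662 CPM, the last on 35 UMIs in 6 cells. Monocytes held 317, 348, 327 and 337 CPM and macrophages 175, 220, 207 and 198 CPM. Neutrophils ranged from 242 to 539 CPM and cDC2 from 319 to 402 CPM. The ranges were apart between mature dendritic cells and cDC2, between monocytes and intermediate phagocytes, and between macrophages and the lymphocyte classes.

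Thinned to 2000 UMIs, 61.5, 67.7, 57.6 and 50% of mature dendritic cells had a Csf2rb UMI, against 2.99, 4.35, 6.76 and 4.55% of NK cells. UMIs of both chains were found in the same cell for 6.77, 7.84, 8.91 and 6.89% of thinned macrophages and 10.8, 13.7, 14.2 and 10.8% of thinned monocytes. As counted the shares were 36.0, 35.6, 35.2 and 37.95% of macrophages and 35.0, 31.0, 41.65 and 29.0% of monocytes. The share with both thus moved with depth and is not the share of cells that carry both chains. Foxp3-negative CD4 T cells had 8.73 and 11.4 CPM of Csf2rb in the controls, on 1 and 2 UMIs in 18 and 29 cells. After LNP-Sirpa they had 91.2 and 97.0 CPM, which was 38.1 and 44.3% of the phagocyte level. The macrophage list in those cells was 8.17 and 7.67% in the controls and 11.1 and 11.6% after LNP-Sirpa. The common phagocyte list was 15.1 and 14.65% in the controls and 25.5 and 29.2% after LNP-Sirpa. The part of these markers in the Csf2rb values was not tested, and the class had too few control cells for a test.

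Mouse Csf2rb has a neighbouring copy, Csf2rb2, the beta chain specific for IL-3, and reads could be split between them. In the GENCODE vM21 transcripts (GRCm38), the coding sequences of the longest transcripts were aligned over 2697 columns, of which 66 were gaps. Of all columns, 2505 (92.9%) were identical, with gaps counted as differences. The libraries were read with 100 bases of transcript; 334 of the 4801 stretches of 100 bases in the Csf2rb transcript (6.96%) also occurred in a Csf2rb2 transcript, and 0 of the 901 such stretches in its last 1000 bases. The end of the coding sequence is shown because the copies part there, with capitals for each base that differs or has no counterpart in the other gene.
Csf2rb: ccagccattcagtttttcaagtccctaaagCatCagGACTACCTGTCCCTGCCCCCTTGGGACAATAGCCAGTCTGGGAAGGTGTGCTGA
Csf2rb2: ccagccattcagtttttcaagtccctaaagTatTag
Csf2rb2 ran far lower, at 19.6, 26.2, 27.5 and 26.7 CPM in macrophages. How reads that fit both genes were counted is not given in the sources used here, so Csf2rb values are uncertain by the part of reads that fall in shared stretches.

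Csf3r marked the neutrophil gate. Neutrophils held 342, 882, 340 and 282 CPM, on 24, 19, 203 and 138 cells, and the control 2 value came from 40 UMIs. Monocytes had 31.1, 41.4, 21.5 and 16.4 CPM and macrophages 14.5, 23.1, 22.3 and 13.4 CPM, between which the ranges overlapped. T cells, NK cells, dendritic cells and fibroblasts of the classes tested were at most 10.9 CPM. A Csf3r UMI was seen in 62.5, 57.9, 59.6 and 63.0% of neutrophils as counted, at median depths of 2347, 1486, 2527 and 2197 UMIs, and in at most 4.48% of CD8 T cells at median depths of 5658 to 6365 UMIs. Thinning left 16, 4, 132 and 79 neutrophils, of which 43.8, 50, 45.5 and 44.3% had a UMI.

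With more neutrophils in the LNP-Sirpa libraries, their part of the Csf3r UMIs was 3.92 and 2.11% in the controls and 15.7 and 17.2% after LNP-Sirpa. Macrophages held 39.3, 50.3, 24.6 and 38.8% of Csf3r UMIs, and outnumbered neutrophils in every library. Over all kept cells the level of Csf3r was 13.7, 20.9, 19.9 and 14.9 CPM, with groups that overlapped.

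Flt3 was highest in dendritic cell classes other than cDC2. Mature dendritic cells held 140, 187, 265 and 185 CPM, and cDC1 98.4, 86.2, 124 and 96.1 CPM. In cDC2 the level was 12.7, 19.1, 8.65 and 5.26 CPM. The phagocyte classes and NK cells stayed at or below 3.34 CPM, and the ranges of mature dendritic cells and cDC2 were apart.

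Thinned to 2000 UMIs, 27.7, 27.7, 40.2 and 27.8% of mature dendritic cells and 18.3, 14.4, 26.7 and 0% of cDC1 had a Flt3 UMI, the last on 11 cells. In macrophages the share was 0.129 to 0.459%. Mature dendritic cells held 19.7, 18.3, 31.4 and 21.4% of the Flt3 UMIs and cDC1 21.5, 21.0, 21.2 and 10.7%. LNP-Sirpa 2 had 11 cDC1 and 22 mature dendritic cells, against 61 to 94 and 68 to 113 in the other libraries, and its Flt3 level over all kept cells was 1.46 CPM against 5.19 to 6.88 CPM. Fewer dendritic cells and less Flt3 RNA per cell cannot be told apart in that sum, and within mature dendritic cells LNP-Sirpa 2 was not low.

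Of the pairs of classes chosen for a test, 3 had at least 20 cells of both classes in every library: monocytes with macrophages, fibroblasts with macrophages, and NK with CD8 T cells. Monocytes had more Csf1 than macrophages (log2 difference 0.65 ± 0.15 SE, edgeR adjusted p = 7.5e-04) and more Csf2rb (0.74 ± 0.13, adjusted p = 8.4e-06). Monocytes also had more Csf3r (0.47, adjusted p = 0.0387) and less Csf1r (-0.37, adjusted p = 0.0367). For Csf2ra and Flt3 the difference was not past the threshold. These 4 calls stand beside a share of 23.7% of all 13688 genes called in that pair. The Csf1r difference was no longer called without control 1 (adjusted p = 0.163), control 2 (0.345) or LNP-Sirpa 2 (0.0699), and that of Csf3r without the same libraries (0.203, 0.129 and 0.0573); those of Csf1 and Csf2rb passed without each library in turn.

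Against macrophages, fibroblasts had 1.81 ± 0.17 log2 units more Csf1 (adjusted p = 2.3e-06) and less of every receptor tested, from -3.93 for Csf2ra and -3.87 for Csf1r to -1.38 for Flt3; 69.1% of genes were called in this pair. The Flt3 call was lost without control 1 (-1.03, adjusted p = 0.0821). NK cells had 3.88 ± 0.36 log2 units less Csf1 than CD8 T cells (a difference of -3.88, adjusted p = 1.5e-04). They also had less Csf2rb (-0.92, adjusted p = 6.2e-04) and Csf1r (-0.53, adjusted p = 0.0188), and 17.2% of genes were called. The common phagocyte markers stood at 19.1 to 29.1% of the phagocyte level in NK cells and 11.5 to 26.1% in CD8 T cells, and their part in the receptor values was not tested. The Csf1r call was lost without LNP-Sirpa 1 (adjusted p = 0.213) or LNP-Sirpa 2 (0.0862).

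**Figure D2:**
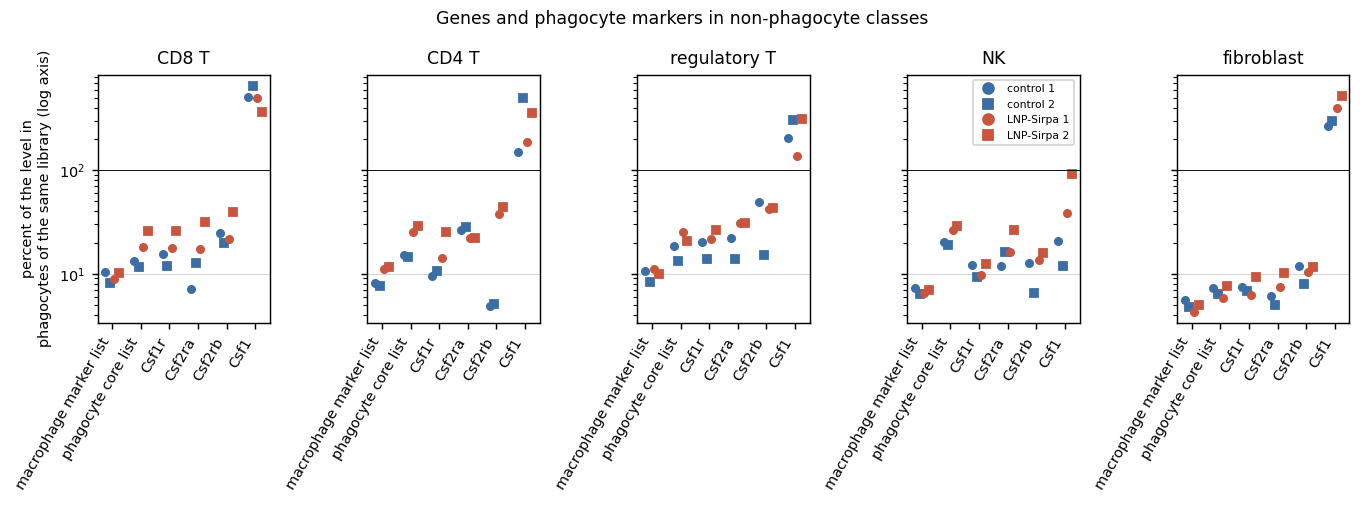
Level of the summed macrophage markers, the summed common phagocyte markers and 4 genes in 5 non-phagocyte classes, as percent of the level in phagocytes of the same library on a log axis, 1 point per library. Csf1 lies above the 100% line in CD8 T, CD4 T and regulatory T cells and fibroblasts and below it in NK cells, while the receptor genes lie between 4.89 and 49.5%.

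Csf1r was the gene of the 7 with a call between LNP-Sirpa and control, and in 1 of 12 sums. In intermediate phagocytes it fell from 739 and 772 to 407 and 350 CPM (log2 difference -0.80 ± 0.20 SE, edgeR adjusted p = 0.0411), where 10.4% of 12775 genes were called, 3.95% as lower. That call was lost without control 1 (adjusted p = 0.272), without control 2 (0.304) and with a looser gate (0.0543). C1q in this class moved too, as given above, and its summed macrophage markers were 11850 to 14610 CPM after LNP-Sirpa against 21230 and 26930 CPM in the controls. The control sums lay above those of gated macrophages in the same library, and the LNP-Sirpa sums lay below them. The call thus compares cells of unlike marker level, and the part of that in the Csf1r difference of this class was not tested.

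In macrophages the Csf1r difference was -0.65 ± 0.21 (adjusted p = 0.236, 0.225% of genes called), in monocytes -0.20 ± 0.20 (0.708, 2.77%) and in all phagocytes together -0.69 ± 0.19 (0.116, 1.96%). With DESeq2 the last had an adjusted p of 0.00674. The groups did not overlap in any of these sums, and neither did they for 44.6% of all genes tested in macrophages, 50% in monocytes, 61.9% in intermediate phagocytes and 52.8% in all phagocytes. The summed macrophage markers of the macrophage class overlapped between groups, at 20070 and 26040 CPM in the controls and 21680 and 18680 CPM after LNP-Sirpa.

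To read Csf1r at like marker levels, phagocytes were cut into bins of C1q level and, separately, of monocyte marker level, a division chosen after the data were seen. Both LNP-Sirpa libraries lay below both controls in each of the 5 C1q bins and each of the 6 monocyte marker bins. Both sets of bins cut the same phagocytes of the same 4 libraries, so their number adds no replicates. The share of all genes in this order was not worked out by bin. In all phagocytes together the groups did not overlap for 52.8% of genes. At the lowest C1q, under 20 per 10000, Csf1r was 492, 396, 333 and 320 CPM, and at the highest, 120 or more, it was 709, 700, 432 and 349 CPM. The log2 ratio of group means was -0.44 at the first and -0.85 at the second. In the controls Csf1r was higher at each higher bin of C1q. In LNP-Sirpa 1 it was 333, 361, 354, 398.5 and 432 CPM from the lowest bin to the highest, and in LNP-Sirpa 2 it stayed between 320 and 350 CPM. Over the bins of monocyte markers the log2 ratio was -0.63 at under 3 per 10000 and -1.21 at 25 or more. The top bin held 543, 453, 890 and 764 cells, against 157, 129, 653 and 697 in the monocyte gate, so at most 157 and 129 of its cells in control 1 and 2 were gated monocytes. The part of that make-up in the ratio was not tested, and within gated monocytes the Csf1r difference was -0.20 (edgeR adjusted p = 0.708). The smallest bin held 230 cells in a library.

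**Figure D3:**
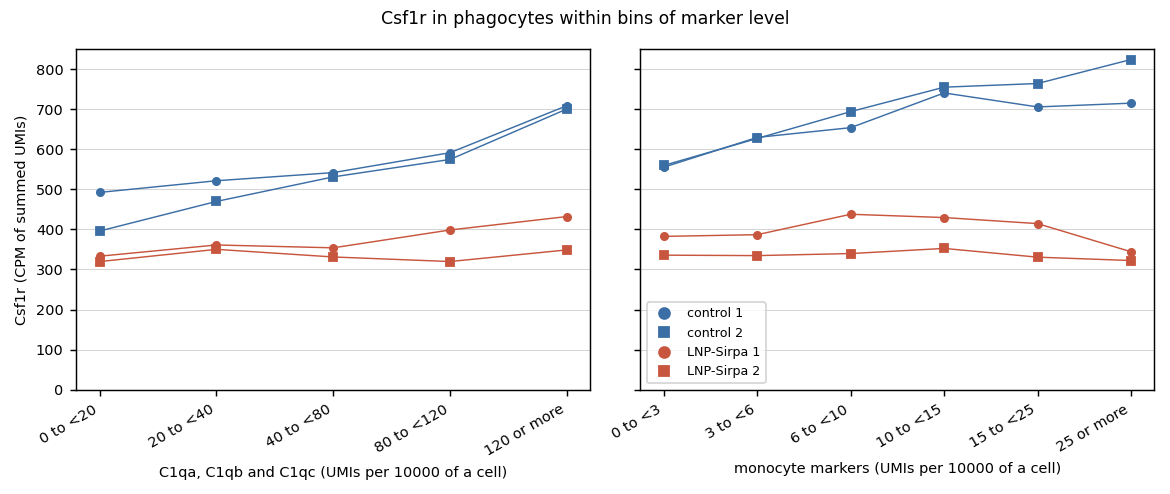
Csf1r in CPM of summed UMIs (vertical axis) within bins of C1q level (left) and of monocyte marker level (right), in UMIs per 10000 of a cell, 1 line per library. The 2 red LNP-Sirpa lines lie below the 2 blue control lines in every bin, by -0.44 to -0.85 log2 on the left and -0.63 to -1.21 on the right. Both panels cut the same phagocytes of the same 4 libraries.

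Among the tested classes outside the phagocytes, the same order of groups appeared in NK cells, fibroblasts and regulatory T cells. In NK cells Csf1r was 78.0, 60.7, 38.2 and 42.2 CPM (-0.91 ± 0.26, edgeR adjusted p = 0.125, 0.999% of genes called, 39.5% not overlapping). In fibroblasts it was 48.5, 43.8, 24.4 and 31.2 CPM (-0.66 ± 0.22, edgeR adjusted p = 0.300, 0.564% called, 43.8% not overlapping). In regulatory T cells it was 133, 90.6, 85.1 and 88.0 CPM and did not pass (0.435% called, 38.1% not overlapping). The macrophage markers in NK cells and fibroblasts are given above, and in regulatory T cells they stood at 8.33 to 11.2% of the phagocyte level. Their part in these values was not tested. The interaction of treatment with class, which asks whether Csf1r moved differently in monocytes and macrophages, was 0.56 ± 0.22 (adjusted p = 0.263, 1.45% of genes called).

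Csf1 passed the test in none of the sums. In CD8 T cells its difference was -0.64 ± 0.38 (edgeR adjusted p = 0.671, with 0.417% of 10308 genes called), and the libraries of the LNP-Sirpa group were 153 and 58.5 CPM. Without LNP-Sirpa 1 the difference was -1.40 (adjusted p = 0.0224) and without LNP-Sirpa 2 it was -0.17 (0.925), and LNP-Sirpa 2 was the lower of the pair. In fibroblasts the difference was 0.46 ± 0.20 (adjusted p = 0.425), in NK cells 1.27 ± 0.53 (0.376), in regulatory T cells -0.61 ± 0.30 (0.612, 0.435% called), in T cells outside the other gates -0.004 ± 0.54 (0.999, 0.392% called) and in macrophages -0.22 ± 0.29 (0.815). The interaction was 0.75 ± 0.23 for fibroblasts against macrophages (adjusted p = 0.195, 0.578% of genes called) and 1.63 ± 0.54 for NK against CD8 T cells (0.391, 0.263%). Without LNP-Sirpa 1 both passed, at 0.97 (adjusted p = 0.0328) and 3.01 (0.0110).

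Neither chain of the GM-CSF receptor passed in any class with the settings used throughout. Csf2ra differed by 0.37 ± 0.20 in macrophages, 0.33 ± 0.24 in monocytes and 0.53 ± 0.18 in intermediate phagocytes (adjusted p = 0.486, 0.546 and 0.107). Csf2rb differed by 0.13, 0.17 and 0.53 in the same order (adjusted p = 0.864, 0.744 and 0.152). In mature dendritic cells Csf2rb was 571 and 599 CPM against 474 and 487 CPM, groups that did not overlap, at -0.48 ± 0.22 (adjusted p = 0.315, 2.84% of genes called, 48% not overlapping).

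Both chains lay higher after LNP-Sirpa in every lymphocyte sum tested and in fibroblasts. In CD8 T cells Csf2ra was 9.37, 15.5, 33.5 and 38.8 CPM (1.38 ± 0.33, adjusted p = 0.108; edgeR adjusted p = 0.00532 with no filter on low counts and 0.0349 with a looser gate), and Csf2rb 44.5, 45.0, 51.3 and 86.6 CPM (0.64 ± 0.32, adjusted p = 0.563). Groups did not overlap for either gene, nor for 40.5% of all genes tested in that class. The same held for both chains in regulatory T cells (38.1% of genes), other T cells (40.4%), NK cells (39.5%) and fibroblasts (43.8%), with adjusted p from 0.201 to 0.684. The common phagocyte markers stood at 13.2, 11.5, 17.96 and 26.1% of the phagocyte level in CD8 T cells, with both LNP-Sirpa libraries higher. Both were also higher in regulatory T cells (18.7, 13.35, 25.3 and 20.8%), other T cells (21.3, 12.4, 30.0 and 37.0%) and NK cells (20.3, 19.1, 26.5 and 29.1%). In fibroblasts these markers stood at 7.22, 6.33, 5.82 and 7.67%, and the groups overlapped. The 8 neutrophil markers summed to 16.2, 14.8, 84.3 and 47.95 CPM in fibroblasts, with both LNP-Sirpa libraries higher. Both were also higher in CD8 T cells (63.2, 78.0, 205 and 204 CPM), other T cells (96.1, 181.5, 231.5 and 299 CPM) and NK cells (22.8, 13.6, 131 and 64.2 CPM). In regulatory T cells the neutrophil markers were 499, 291, 431 and 500 CPM, and the groups overlapped. The part of either list in these values was not tested.

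Csf3r was tested in monocytes at -0.73 ± 0.31 (adjusted p = 0.274), with 31.1 and 41.4 CPM in the controls and 21.5 and 16.4 CPM after LNP-Sirpa, and in macrophages at -0.02 ± 0.29 (0.990). Flt3 in mature dendritic cells differed by 0.33 ± 0.29 (adjusted p = 0.625). In cDC2, where 1% of 6469 genes were called, only Csf1r, Csf2ra and Csf2rb could be tested, and their differences were 0.09, 0.31 and 0.08 (adjusted p = 0.943, 0.647 and 0.934); their groups overlapped, while 42.9% of genes there did not overlap. Over all kept cells, with all 7 genes tested and 0.0111% of 18047 genes called, Csf2 differed by 0.40 ± 0.33 (adjusted p = 0.604) and Csf1r by -0.79 ± 0.20 (0.172; 0.00985 with DESeq2). A filter on low counts left 3 to 6 of the 7 genes in the tests of single classes.

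**Figure D4:**
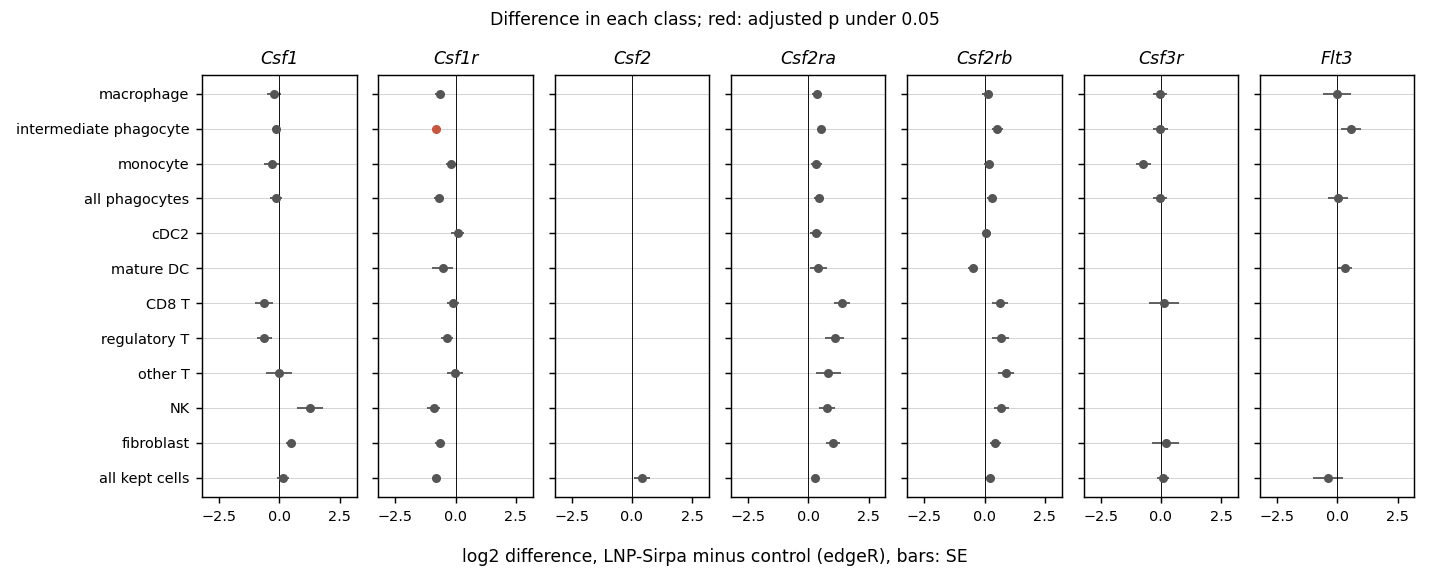
Log2 difference of LNP-Sirpa minus control (horizontal axis) with its SE for each gene in the sums where it passed the filter on low counts. The red point, Csf1r in intermediate phagocytes at -0.80, is the difference with an adjusted p under 0.05.

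Other genes of the pathway were read from lists of ligands, receptors, signalling parts, STAT5 and feedback targets, genes that GM-CSF is known to induce, and myeloid transcription factors. Of the ligands, Il34, the second ligand of the Csf1 receptor, was a fibroblast gene, at 106, 106, 101 and 88.6 CPM against at most 1.95 CPM in macrophages. Flt3l, the ligand of Flt3, was highest in NK cells, at 70.2, 78.5, 94.9 and 121 CPM, and stood at 53.8 to 68.5 CPM in CD8 T cells and 6.70 to 10.2 CPM in macrophages. Csf3, the ligand of Csf3r, was at most 0.518 CPM over all kept cells. None of the 4 ligands tested passed over all kept cells.

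In intermediate phagocytes, where 6.41% of genes were called higher, genes of 5 lists rose. As given above, this class held cells of unlike marker level in the 2 groups. The part of that in the pathway calls of this class, higher or lower, was not tested. Of the 9 feedback targets, 3 rose: Socs1, an inhibitor of JAK kinases, from 3.53 and 3.97 to 16.6 and 10.6 CPM (2.04 ± 0.26, adjusted p = 0.00694), Cish by 1.11 and the kinase gene Pim1 by 1.02; the list's median was 0.30 against -0.02 over all genes. Of 15 signalling genes 1 rose, Jak2, from 21.3 and 28.3 to 65.3 and 56.0 CPM (1.48 ± 0.19, adjusted p = 0.00694), and the list's median was 0.08. Of 4 other receptors tested, 2 rose, Csf2rb2 by 0.95 and Sdc1 by 1.98. Of 8 GM-CSF induced genes, 3 rose, the IL-1 receptor antagonist gene Il1rn by 1.39, the chemokine gene Ccl6 by 1.31 and Bhlhe40 by 1.12, with a median of 0.57.

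Of 12 myeloid factors in the same cells, Cebpe, a factor of granulocyte maturation, rose by 2.06 from 1.13 and 1.55 to 4.89 and 4.85 CPM, and Cebpa fell by 0.98 from 72.1 and 62.4 to 34.1 and 25.7 CPM. The summed neutrophil markers in this class were 71.3 and 68.8 CPM in the controls and 385 and 368 CPM after LNP-Sirpa. Their part in the Cebpe difference was not tested. In all phagocytes Jak2 (1.24), Socs1 (1.79) and Cebpe (1.71) passed. In macrophages none of the listed genes tested passed; Jak2 (1.08, adjusted p = 0.0726) and Socs1 (1.70, 0.0647) were among them.

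In the other classes few listed genes passed. In monocytes, where 2.77% of genes were called, Pparg, a nuclear receptor that GM-CSF induces in alveolar macrophages, fell by 2.63 from 17.8 and 48.9 to 2.39 and 6.49 CPM (edgeR adjusted p = 0.0475). In mature dendritic cells (2.84% called) the chemokine gene Ccl22 fell by 1.04 from 3222 and 2507 to 1817 and 1344 CPM (adjusted p = 0.0166). Il1rn rose in cDC2 (1% called) by 1.39 from 55.7 and 46.6 to 119 and 156 CPM. Ccl6 in regulatory T cells (1.81), Ccl6 in other T cells (2.46) and Il1rn in fibroblasts (1.81) also passed, in classes with 0.435, 0.392 and 0.564% of genes called, and the part of phagocyte marker UMIs in these calls was not tested.

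Genes whose log2 level ran most like each of the 7 over 40 sums (10 classes in 4 libraries, 6808 genes compared) were found as a description; the sums share libraries and, as given above, UMIs of phagocyte markers. Csf1r ran closest to Lrrc25 (Pearson r = 0.956), Sdcbp (0.949) and Man2b1 (0.945). Pirb was among the genes nearest to Csf2ra (0.944), and Csf2rb ran closest to Bcl2a1a (0.960), Aph1c (0.951) and Irf5 (0.949). For Flt3 they were Strip2 (0.930), H2-Eb2 (0.926) and Tmem131 (0.915), and for Csf3r Ppard (0.833), Igsf6 (0.819) and Sash1 (0.818), with neutrophils outside these sums. Csf1 had no near match, with Brd9 (0.779), Wls (0.777) and Ppp1r12b (0.775), and Csf2, on few UMIs, ran closest to the T cell chemokine gene Ccl1 (0.718).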

How the data were processed

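Raw UMI counts per gene and cell were deposited by the authors for 4 cDNA libraries; 4 oligo libraries were not analysed here. The submitters' processing notes name STAR 2.5.1b and the build GRCm39, and the file headers name PISA 1.0; for strand use and reads that fit several genes, the sources used here give no rule. Cells under 500 UMIs or 300 genes, or with mitochondrial UMIs above 15%, were left out. No doublet caller was run: cells past the gates of more than 1 lineage were set apart as mixed. The 7 genes, marker lists and pathway lists were chosen with earlier results of these data known, and the gate thresholds were set after the data were seen.

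UMIs were summed per class and library and tested with edgeR's quasi-likelihood test (TMM, filterByExpr, Benjamini-Hochberg over all genes tested, threshold 0.05), as 2 against 2 libraries, or between classes with the library as a term. Pairs of classes were chosen with the design, and those with fewer than 20 cells of a class in a library were not fitted. Genes named were the 7, the pathway genes that passed, and the 3 with the highest Pearson r of log2(CPM + 1) to each. Some genes that this rule names are not reported here. Alternatives were DESeq2, DESeq2 size factors, no filter on low counts, a replicate block, each library left out, stricter and looser gates, a stricter cell filter, leaving out the 5% of cells with the most UMIs, and thinning to 2000 UMIs. Shares of cells carry exact (Clopper-Pearson) 95% binomial intervals and a limit of 3 cells for a count of 0, which cover counting error only. The tests were checked on simulated counts, with a fixed spread that was not fitted to these data. There, in tests between groups, a log2 change of 1 was called for 36.3% (monocytes) to 75.8% (all phagocytes) of the changed genes. In the interaction tests it was called for 14 to 19%. A difference that did not pass is therefore not shown to be absent. Barcode names are running numbers within a library, and 830 to 1242 names recur between pairs of libraries. Depth per library is given with the data.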

Additional observations from a re-analysis of the deposited data

How the results depend on the processing

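Each alternative changed 1 choice. In intermediate phagocytes 1324 genes were called, against 2517 with no filter on low counts and 99 to 2226 with a library left out. In all phagocytes 307 were called, against 1248 with DESeq2, 2180 with no filter, 538 after thinning to 2000 UMIs and 32 to 968 with a library left out. Why the counts moved was not tested beyond the number of genes and samples each setting leaves.

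The Csf1r call in intermediate phagocytes was lost with a looser gate (-0.80, edgeR adjusted p = 0.0543); with a library left out the difference was -0.86 to -0.73. In all phagocytes Csf1r passed with DESeq2 (-0.68). The class differences that lost their call were Csf1r for monocytes against macrophages with a stricter gate (-0.35) and after thinning (-0.28), Csf3r there with no filter (0.42), Flt3 for fibroblasts against macrophages with a looser gate (-0.71), and, for NK against CD8 T cells, Csf1r with a looser gate (-0.39) or thinned (-0.48) and Csf2rb thinned (-0.50). With a library left out they ranged from -0.48 to -0.21, 0.33 to 0.63, -1.69 to -1.03 and -0.65 to -0.44 for the first, the second, the third and the fourth gene and pair named. The Csf1 interactions ranged from 0.51 to 0.97 and from 1.22 to 3.01. The number of monocytes did not pass with a stricter gate (2.03), nor did any of the 4 class sizes called without control 1 or without control 2; leaving out a library gave 1.75 to 2.57 for monocytes, 2.45 to 3.31 for neutrophils and 2.19 to 2.51 for CD4 T cells. Thinned to 1000 UMIs, the mean share with a UMI was 38.3% for Csf1r in macrophages and 10.99% for Csf1 in CD8 T cells.

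The replicate numbers did not pair the libraries (correlation of same-numbered deviations -0.14 to 0.04 over 12 sums). With the replicate block the Csf1r difference in intermediate phagocytes was -0.80 (edgeR adjusted p = 0.0778) and Csf2ra in CD8 T cells passed at 1.49 (0.00252). In cDC2, where same-numbered sums deviated in opposite directions, 65 genes were called without a block, 73 with it and 269 with the crossed pairing, chosen after seeing the data.

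Signs that turned belonged to differences that had not passed: Csf1 in intermediate phagocytes thinned (0.017), Csf3r in macrophages with the replicate block (0.0045) or a stricter gate (0.021) and in intermediate phagocytes with the replicate block (0.017) or thinned (0.00023), Csf2rb in cDC2 with a looser gate (-0.018) or thinned (-0.0057), Flt3 for monocytes against macrophages with a looser gate (0.19), and Csf2ra for NK against CD8 T cells with a stricter (-0.040) or looser gate (-0.15) or thinned (-0.26). With a library left out, Csf1 ranged from -0.74 to 0.15 in macrophages, -0.76 to 0.046 in monocytes and -0.53 to 0.16 in all phagocytes, Csf3r from -0.34 to 0.40, -0.39 to 0.46 and -0.35 to 0.36 in macrophages, intermediate and all phagocytes, Csf2rb from -0.061 to 0.34 in macrophages and -0.095 to 0.24 in cDC2, and Flt3 from -0.0074 to 0.54 in mature dendritic cells and -0.65 to 0.40 for monocytes against macrophages. The cause was not tested.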
